A study of Mus musculus with 8 samples.

Results

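The Lin28, Igf2bp and Hmga genes are 7 genes of developmental timing: Lin28a, Lin28b, Igf2bp1, Igf2bp2, Igf2bp3, Hmga1 and Hmga2. They were taken by gene symbol, with case ignored, from a table of 23768 genes, and all 7 were found. The most highly expressed transcript stood for each gene. RNA sequencing had been done on total RNA of whole mouse testes at postnatal day 5, on the 129/SVJ background, in 4 samples labelled wild type and 4 samples labelled Dio3KO. Dio3 encodes the deiodinase that inactivates thyroid hormone, whose effect on gene expression in the newborn testis was the question of the study. The labels state neither which part of Dio3 was altered nor whether a sample came from 1 animal or several. The p values therefore measure the spread between these samples, which may be partly technical.

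LIN28 proteins bind the precursors of the let-7 microRNAs and block their maturation. Mature let-7 in turn represses mRNAs that carry its sites, and these include Lin28 itself, Igf2bp1 and Hmga2. The loop is known as a switch from fetal to mature programmes: LIN28, the IGF2BP proteins that bind and stabilise mRNAs, and the HMGA proteins that bend chromatin at AT-rich DNA are high in embryonic and progenitor cells and decline as tissues mature. In the testis, Lin28a is known as a gene of undifferentiated spermatogonia.

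Igf2bp1 and Igf2bp3 fell in Dio3KO-labelled testes, with changes of -21.6% and -25.05% relative to the wild-type means. Igf2bp2, Lin28a, Lin28b, Hmga1 and Hmga2 did not pass the test, so 2 of 7 genes fell and 0 rose. Among all 15226 genes tested, 15.9% fell and 14% rose, 29.9% in all. Hmga2 was below 1 RPKM in both groups, and Hmga1 was the most highly expressed of the 7. Levels are the authors' group means in RPKM, a read count per transcript length and per mapped reads of a library. The spread is the authors' coefficient of variation (CV), the SD divided by the mean over the 4 samples of a group.

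The let-7 family and its matches in the 7 genes are shown first because they are what the genes share in sequence. Of 11 mature let-7 family sequences in RefSeq (GRCm38.p6), 10 share the same seed, bases 2 to 8, which pairs with target mRNAs. A few are printed to make the shared seed visible, with the seed in capitals.
let-7a-5p: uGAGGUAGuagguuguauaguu
let-7b-5p: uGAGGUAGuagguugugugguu
let-7g-5p: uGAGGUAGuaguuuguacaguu
miR-98-5p: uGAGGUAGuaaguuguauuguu

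The complement of this seed, CTACCTC, was searched on the sense strand of the longest annotated 3′ UTR of each gene (GENCODE M21 on GRCm38, which is mm10). The 3′ UTR searched may differ from that of the transcript whose level is given, since the 2 annotations were not matched by transcript. All 7 genes held at least 1 match. Over 20979 genes with an annotated 3′ UTR, the share was 8.96%, and among 3′ UTRs of at least 2000 bases it was 19.9%. All but Hmga1, 6 of the 7 genes, also held the longer match CTACCTCA, found in 3.02% of all genes. Igf2bp1 had 4 matches in 6337 bases, Lin28b 4 in 4445 bases and Hmga2 4 in 3014 bases, and 3 or more matches were found in 0.153% of all genes. Lin28a had 2, and Igf2bp2, Igf2bp3 and Hmga1 had 1 each. The shares of 3.02% and 0.153% are over 3′ UTRs of all lengths, with a median of 954 bases. They were not computed for long 3′ UTRs alone, and they overstate how rare such matches are at these lengths. The 7 genes were also listed beforehand as let-7 targets known from other work. A match is a description of the letters and does not show that let-7 acts there.

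The matches of the 2 genes that fell, and the first match of each of the others, are shown as mRNA sense with the matching letters in capitals. Each lies within 1 exon.
Igf2bp1, chr11:95961778-95961799, minus strand: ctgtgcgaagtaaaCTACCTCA
Igf2bp1, chr11:95959357-95959378, minus strand: agcagtgctattaaCTACCTCA
Igf2bp1, chr11:95958763-95958784, minus strand: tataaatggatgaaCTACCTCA
Igf2bp1, chr11:95958140-95958161, minus strand: cttttggttttaatCTACCTCt
Igf2bp3, chr6:49086787-49086808, minus strand: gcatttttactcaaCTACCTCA
Igf2bp2, chr16:22059473-22059494, minus strand: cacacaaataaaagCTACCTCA
Lin28a, chr4:134005189-134005210, minus strand: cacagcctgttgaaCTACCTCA
Lin28b, chr10:45381022-45381043, minus strand: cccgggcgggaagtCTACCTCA
Hmga2, chr10:120364224-120364245, minus strand: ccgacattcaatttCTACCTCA
Hmga1, chr17:27563278-27563299, plus strand: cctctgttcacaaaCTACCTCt

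**Figure D1:**
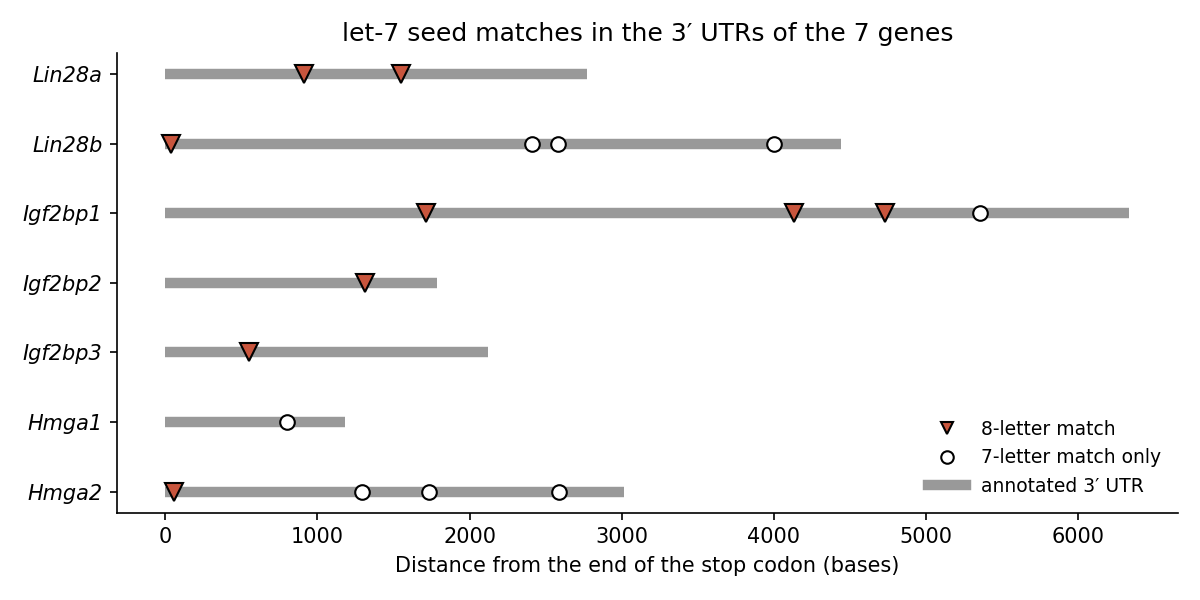
Positions of let-7 seed matches in the longest annotated 3′ UTR of each gene, as the distance in bases from the end of the stop codon (horizontal axis). Triangles are matches to the 8 letters CTACCTCA, circles are matches to the first 7 letters only, and grey bars are the 3′ UTRs. Igf2bp1 has the longest 3′ UTR (6337 bases) with 4 matches, and Igf2bp3 has 1 match in 2119 bases.

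As for the libraries as a whole, 15226 genes reached 1 RPKM in the mean of a group and were tested. Depth per sample is unknown. Dio3 itself was higher in the Dio3KO-labelled group, at 0.52 RPKM (CV 0.20) and 2.95 RPKM (CV 0.29). Its adjusted p in the authors' deposited table was 0.0408. The group is called Dio3KO-labelled for this reason, and each direction rests on that label. The extraction text in the labels names hypothalami while the tissue is given as testis. Testis markers were high in both groups, among them the germ cell gene Dazl at 89.7 RPKM in each and the Sertoli cell gene Cst12 (477 and 494 RPKM). Ctsl, also in the Sertoli cell list but not particular to the testis, was at 601 and 611 RPKM.

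The Igf2bp genes encode RNA-binding proteins named for their binding to the mRNA of insulin-like growth factor 2. Values of single samples were not used, but the mean and CV of 4 values limit where each can lie, since none is farther than 1.5 SD from the mean. Igf2bp1 (chr11:95957163-96005940, minus strand) had a mean of 6.75 RPKM (CV 0.09) in wild-type testes, so that each of the 4 samples lay between 5.79 and 7.71 RPKM. In Dio3KO-labelled testes its mean was 5.29 RPKM (CV 0.10), with limits of 4.46 and 6.12 RPKM. The Dio3KO-labelled samples were the low ones, and the 2 groups could overlap only between 5.79 and 6.12 RPKM. After adding 0.5 RPKM to both means, their log2 ratio was -0.32 ± 0.09 (SE from the CVs). The authors' deposited table gave it an adjusted p of 0.0413.

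Igf2bp3 (chr6:49085223-49214957, minus strand), an oncofetal member of the family, had the larger difference. Its mean was 10.6 RPKM (CV 0.11) in wild-type testes, with limits of 8.75 and 12.4 RPKM. In Dio3KO-labelled testes it was 7.93 RPKM (CV 0.07), with limits of 7.04 and 8.82 RPKM. The groups could meet only in the narrow band from 8.75 to 8.82 RPKM. The log2 ratio was -0.39 ± 0.09 (SE from the CVs). The authors' deposited table gave it an adjusted p of 0.0475. With the groups as labelled, 8.37% of all genes tested had a lower log2 ratio than Igf2bp3 and 11.8% a lower one than Igf2bp1.

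Igf2bp2 (chr16:22059009-22163299, minus strand) is the family member that stays expressed in many adult tissues. Its mean was 6.82 RPKM (CV 0.08) in wild-type and 7.20 RPKM (CV 0.03) in Dio3KO-labelled testes, and the limits of the Dio3KO-labelled samples (6.82 to 7.58 RPKM) lay inside those of the wild-type samples (5.95 to 7.69 RPKM). The log2 ratio was 0.07 ± 0.06 (SE from the CVs). The authors' deposited table gave it an adjusted p of 0.3492. limma's moderated test on the means and CVs gave a 95% interval of -0.07 to 0.22, which leaves out a fall as large as that estimated for either of the other Igf2bp genes. Scaled to the same total RPKM, the log2 ratio of Igf2bp2 was 0.17 (limma adjusted p 0.0643). Whether Igf2bp2 differed in response from Igf2bp1 and Igf2bp3 was not tested, since the 3 genes come from the same samples and their covariance is unknown. In level, the wild-type mean of Igf2bp3 was 1.55 times that of Igf2bp2 and the Dio3KO-labelled mean 1.10 times. Igf2bp1 went from 0.990 to 0.735 times Igf2bp2. Summed over the family, the means went from 24.2 to 20.4 RPKM.

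Lin28a (chr4:134003330-134018841, minus strand) had nearly equal means, 13.3 RPKM (CV 0.23) in wild-type and 13.3 RPKM (CV 0.16) in Dio3KO-labelled testes. Its wild-type samples lay between 8.62 and 18.0 RPKM and its Dio3KO-labelled samples between 9.98 and 16.5 RPKM, so the groups could overlap widely. The log2 ratio was -0.01 ± 0.19 (SE from the CVs). The authors' deposited table gave it an adjusted p of 0.7919. The limma 95% interval ran from -0.37 to 0.36, and a change the size of that in Igf2bp1 was not detectable for this gene. Scaling the Dio3KO-labelled means to the same total RPKM or to a median log2 ratio of 0 turned the sign of this near-zero value, to 0.09 and 0.04.

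Lin28b (chr10:45376620-45486395, minus strand), the paralog of Lin28a, was about 4 times lower than it in wild-type testes. Its mean was 3.31 RPKM (CV 0.23) in wild-type and 2.92 RPKM (CV 0.09) in Dio3KO-labelled testes. Wild-type samples could reach from 2.14 to 4.48 RPKM, a range that encloses the Dio3KO-labelled limits of 2.504 and 3.34 RPKM. The log2 ratio was -0.16 ± 0.15 (SE from the CVs), with a limma 95% interval of -0.44 to 0.13. The authors' deposited table gave it an adjusted p of 0.4342.

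Hmga1 (chr17:27556497-27563674, plus strand), which encodes architectural chromatin proteins, had means of 27.5 RPKM (CV 0.21) and 25.3 RPKM (CV 0.11). Wild-type samples lay between 18.6 and 36.3 RPKM and enclosed the Dio3KO-labelled range of 20.9 to 29.6 RPKM. The log2 ratio was -0.12 ± 0.17 (SE from the CVs), with a limma 95% interval of -0.43 to 0.19. The authors' deposited table gave it an adjusted p of 0.5333.

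Hmga2 (chr10:120361275-120476469, minus strand), known for its role in growth and body size, was the one gene of the 7 below 1 RPKM in both groups. Its means were 0.38 RPKM (CV 0.18) and 0.43 RPKM (CV 0.08), with limits of 0.275 to 0.485 RPKM in wild-type and 0.375 to 0.485 RPKM in Dio3KO-labelled samples. The log2 ratio was 0.08 ± 0.06 (SE from the CVs). The authors' deposited table gave it an adjusted p of 0.3646. Because the 0.5 RPKM added to each mean exceeds these levels, the log2 ratio understates any change of Hmga2.

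**Figure D2:**
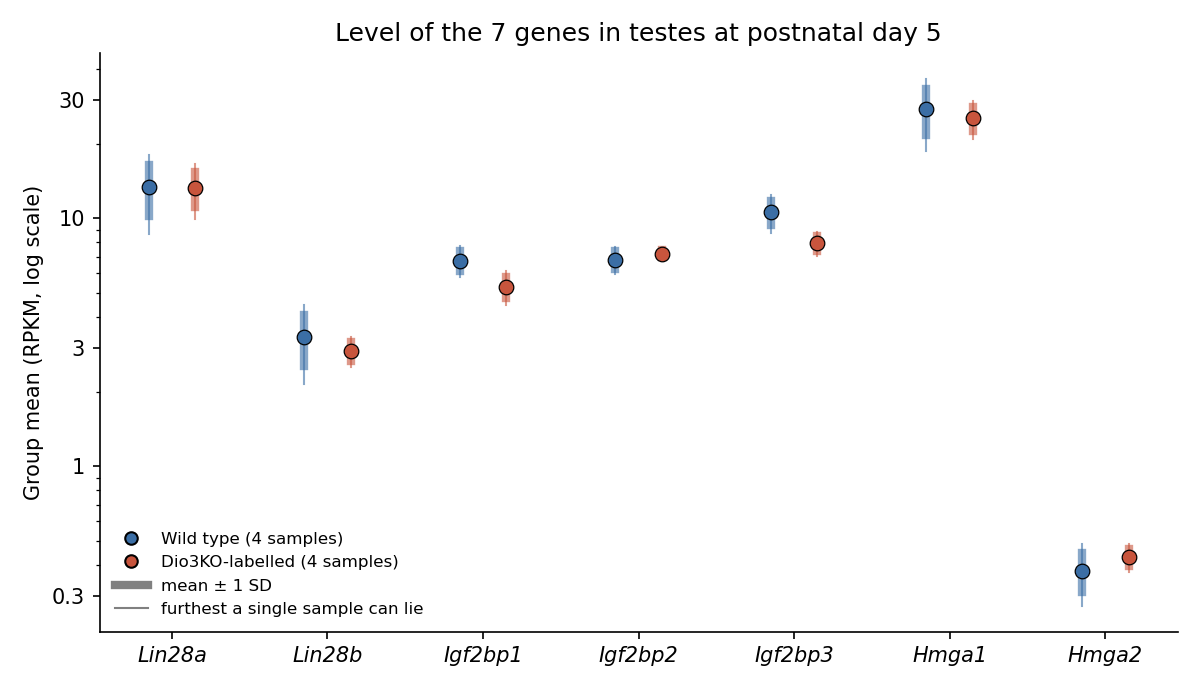
Mean level (RPKM, log axis) of the 7 genes in wild-type (blue) and Dio3KO-labelled (red) testes. Thick bars are the mean ± 1 SD of 4 samples and thin lines are the limits within which each sample must lie. The limits of Igf2bp3 meet only between 8.75 and 8.82 RPKM, and those of Lin28a overlap widely.

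**Figure D3:**
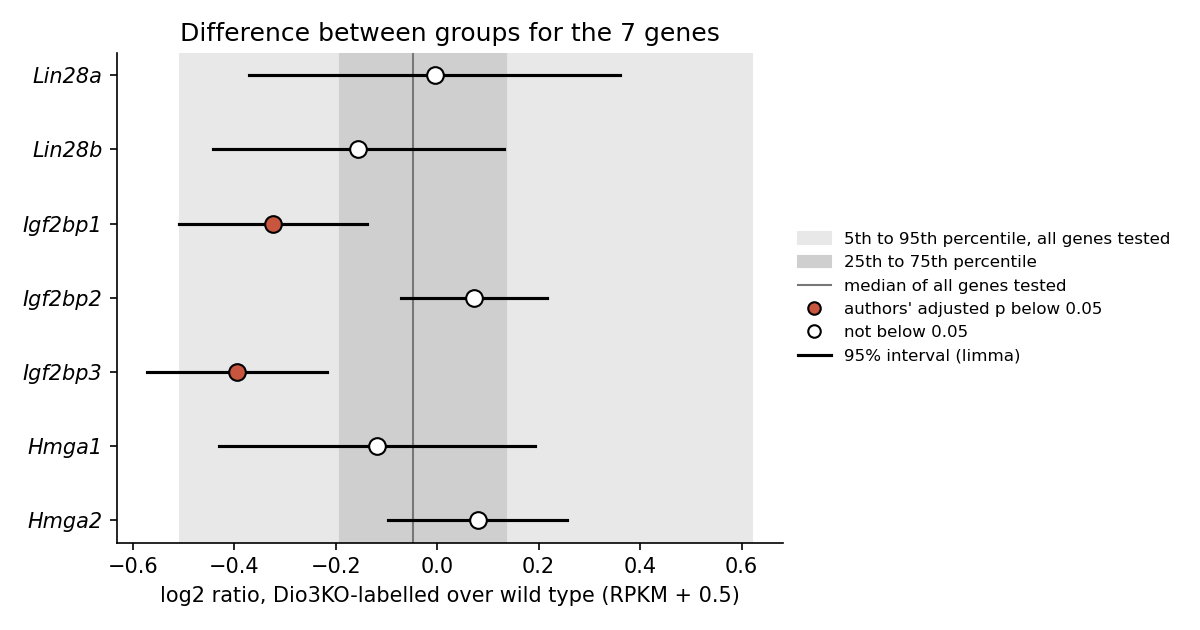
log2 ratio of Dio3KO-labelled over wild-type means (horizontal axis, 0.5 RPKM added) with limma 95% intervals for the 7 genes. Filled points passed the authors' adjusted p of 0.05, the dark band spans the 25th to 75th and the light band the 5th to 95th percentile of all 15226 genes tested. Igf2bp1 (-0.32) and Igf2bp3 (-0.39) lie left of the 25th percentile of all genes (-0.19), and the other 5 lie between the 25th and 75th percentiles.

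Ordered by wild-type level, the genes ran Hmga1, Lin28a, Igf2bp3, Igf2bp2, Igf2bp1, Lin28b and Hmga2. Neighbours in this order whose possible sample ranges overlapped in wild-type testes were Lin28a with Igf2bp3 and Igf2bp2 with Igf2bp1, while Hmga1 stood above Lin28a, Igf2bp3 above Igf2bp2, Igf2bp1 above Lin28b, and Lin28b above Hmga2 with no possible overlap. In Dio3KO-labelled testes Igf2bp2 (7.20 RPKM) stood nearer to Igf2bp3 (7.93 RPKM) than to Igf2bp1 (5.29 RPKM). Among all genes tested, the wild-type level of Hmga1 was above that of 76.6% and the level of Lin28b above that of 19.99%.

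Of the 6 genes of the group that were tested, 2 fell (33.3%, beside 15.9% of all genes), 0 rose and 4 did not pass, and with so few genes nothing particular to the group is read from this. At an adjusted p below 0.01, 0 of the 6 were called, beside 9.24% of all genes. With no filter on low values 11.0% of 23768 genes fell and 9.96% rose, with a minimum of 5 RPKM 18.0% and 14.4% of 11349. These filters do not recompute the authors' adjusted p. Igf2bp1 and Igf2bp3, both above 5 RPKM, therefore had to stay called, and no other member was called. The median log2 ratio of the 6 genes was -0.14, beside -0.05 for all genes tested. For none of the 7 genes did the limits keep the groups apart, whereas 12.8% of all genes tested were lower and 12.1% higher with no possible overlap, 24.9% in all. limma's moderated test also called Igf2bp1 (adjusted p 0.00985) and Igf2bp3 (adjusted p 0.00247) lower and no other member. By limma, 23.2% of all genes were lower and 18.6% higher. With Dio3KO-labelled means scaled to the same total RPKM, that split turned to 12.8% lower and 28.1% higher, with a median log2 ratio of 0 to 17.2% and 22.9%. After the former both genes were called lower, Igf2bp1 with a limma adjusted p of 0.046 and Igf2bp3 with one of 0.0112.

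Of the 7 genes, 4 had several deposited transcripts, which share exons and are not independent. Igf2bp1, Igf2bp3 and Lin28a had 1 each. The 12 transcripts of Hmga1 had log2 ratios from -0.15 to -0.12, and the 3 of Igf2bp2 from 0.07 to 0.09. The 4 of Lin28b differed in wild-type level from 0.35 to 3.31 RPKM and in log2 ratio from -0.26 to -0.05. None of these, and neither of the 2 transcripts of Hmga2, passed the authors' threshold.

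**Figure D4:**
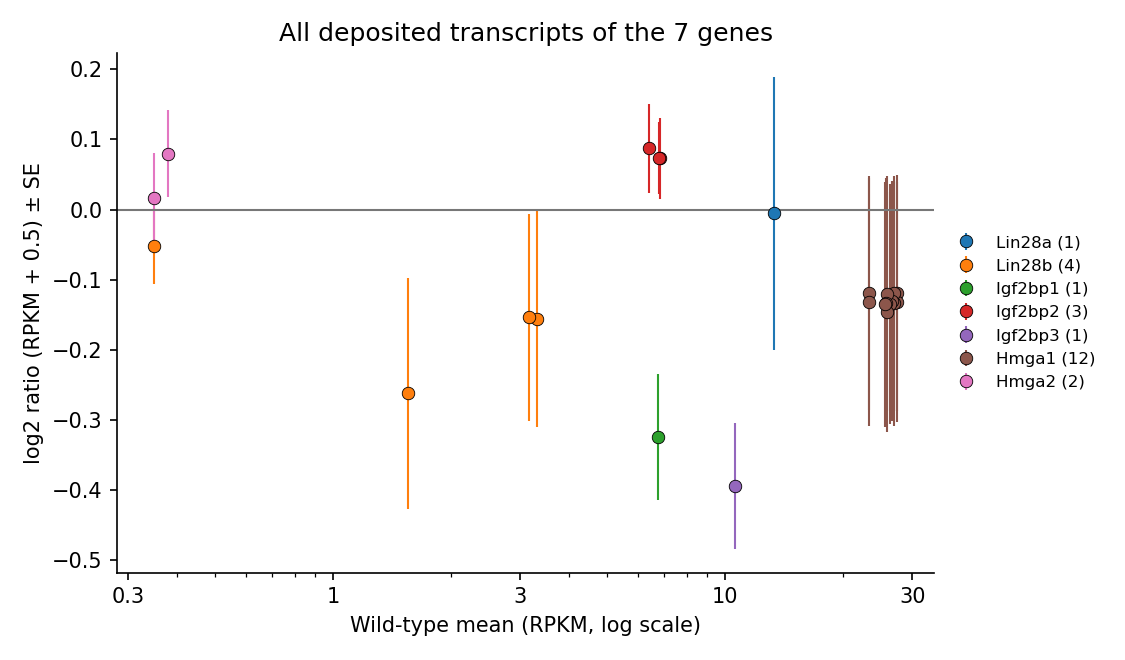
log2 ratio ± SE (vertical axis) against wild-type mean (RPKM, log axis) for all deposited transcripts of the 7 genes, with the number of transcripts in brackets. The 12 transcripts of Hmga1 lie close together (-0.15 to -0.12), those of Lin28b are spread (-0.26 to -0.05), and the single transcripts of Igf2bp1 and Igf2bp3 lie lowest.

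The partners of LIN28 were followed in a list of 23 genes of microRNA processing, of which 10 fell, 1 rose and 12 did not pass. Hnrnpa1, an RNA-binding protein that acts on microRNA precursors, fell from 439 to 307 RPKM. Dgcr8, the partner of Drosha in the nucleus, fell from 19.4 to 16.5 RPKM. The Argonaute genes were mixed. Ago1 fell, with means of 9.55 and 8.06 RPKM, and so did Ago3, with means of 9.34 and 7.91 RPKM. Ago2 (6.65 and 6.85 RPKM) was not called, and Ago4 (0.93 and 1.21 RPKM) was the 1 gene of the list that rose. Ago2 and Ago4 were named after their values were seen. Tut4, the uridylyl transferase recruited by LIN28, fell from 14.4 to 12.1 RPKM, and Dis3l2, the exonuclease that degrades uridylated pre-let-7, fell from 10.4 to 9.11 RPKM (both named after their values were seen). The helicases Ddx5 (317 and 340 RPKM) and Ddx17 (96.1 and 86.1 RPKM) did not reach the threshold. Others of the list were higher in the Dio3KO-labelled group without passing the authors' threshold: Tut7, a relative of Tut4, at 13.7 and 15.1 RPKM, Trim25, a cofactor of LIN28A, at 12.1 and 14.2 RPKM, and Prkra, a partner of Dicer, at 49.9 and 65.0 RPKM (also named after their values were seen). limma called Trim25 (adjusted p 0.0254) and Prkra (adjusted p 0.0086) higher. The median log2 ratio of all 23 genes was -0.12, and the count depends on scaling: limma called 10 lower and 2 higher as deposited, but 3 lower and 6 higher after scaling to the same total RPKM.

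The let-7 precursor genes were hardly detected. Of 11 in the table, 2 reached 1 RPKM in a group, Mirlet7f-1 (2.98 and 2.2 RPKM) and Mirlet7d (1.84 and 1.37 RPKM), and 0 passed. Mirlet7g was listed at 0 in the Dio3KO-labelled group. Their CVs were large, 0.38 and 0.54 for Mirlet7f-1. Mature let-7 was not analysed here.

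Beyond the 7 genes, 24 others known from other work as let-7 targets were listed, of which 8 fell, 1 rose and 15 were not called. Their median log2 ratio was -0.12. Aurkb, a mitotic kinase, fell from 36.5 to 20.5 RPKM, and E2f6, a transcriptional repressor, from 29.8 to 20.2 RPKM. Dna2, a nuclease of DNA replication, fell from 5.50 to 3.73 RPKM and Rrm2, a subunit of ribonucleotide reductase, from 23.9 to 17.3 RPKM. Ccnd2 (58.9 and 45.0 RPKM) and Gng5 (189 and 192 RPKM) did not pass, and Map4k4 rose (55.1 and 61.3 RPKM, named with its value known). Aurkb and Rrm2 also stand among the proliferation genes below, and without these the count was 6 lower and 1 higher of 22. Of the 18 listed genes with a CTACCTC match, 5 fell and 1 rose, and of the 6 without one, 3 fell. Across all 453 genes tested, other than the 7, with the longer match CTACCTCA, 15.5% fell and 15% rose. Their median log2 ratio of -0.02 turned to 0.07 after scaling to the same total RPKM and to 0.02 after scaling to a median of 0.

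Igf2, the growth factor for which the IGF2BP proteins are named, fell. Its wild-type mean was 56.6 RPKM (CV 0.07) and its Dio3KO-labelled mean 39.2 RPKM (CV 0.03), and its adjusted p in the authors' deposited table was 0.0164. The non-coding RNA H19, its imprinted neighbour and also bound by IGF2BP proteins, fell from 377 to 234 RPKM. In the list of 15 tested partners and targets of IGF2BP proteins, 5 fell, 0 rose and 10 did not pass, with a median of -0.09 that turned to 0.00 after scaling to the same total RPKM. The others named by the rule were Kif11 (42.3 to 23.7 RPKM) and Mki67 (39.0 to 24.2 RPKM), both also proliferation genes, while Actb (1489 and 1615 RPKM) and Ctnnb1 (320 and 310 RPKM) did not pass. Without the proliferation genes, 3 of 13 fell.

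Among 10 other high mobility group genes tested, 5 fell, 1 rose and 4 did not pass, with a median of -0.23. The nucleosome-binding gene Hmgn2 fell from 341 to 251 RPKM, Hmgb1 from 286 to 216 RPKM and Hmgb2 from 47.0 to 35.3 RPKM. Hmg20b rose from 22.4 to 28.0 RPKM, and Hmgb3 (221 and 195 RPKM) and Hmgn3 (23.6 and 23.1 RPKM) did not pass. Whether Hmga1 differed from these genes was not tested.

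Growth genes known to decline in many organs after birth gave 7 falls, 0 rises and 8 without a call among 15. Besides Igf2 and H19, which also stand in the list above, Plagl1, an imprinted zinc finger gene, fell from 28.3 to 15.7 RPKM and Ezh2, a Polycomb methyltransferase, from 18.0 to 12.6 RPKM. Sox11, a transcription factor of embryonic progenitors, fell from 2.24 to 1.69 RPKM, and Meg3, a maternally expressed RNA, from 40.5 to 27.4 RPKM. Mycn, named after its value was seen and also a listed let-7 target, fell from 25.6 to 16.9 RPKM. Ndn (78.4 and 81.1 RPKM) and Gpc3 (96.5 and 69.0 RPKM) were not called. The median of the list was -0.45, and it was -0.35 after scaling to the same total RPKM.

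**Figure D5:**
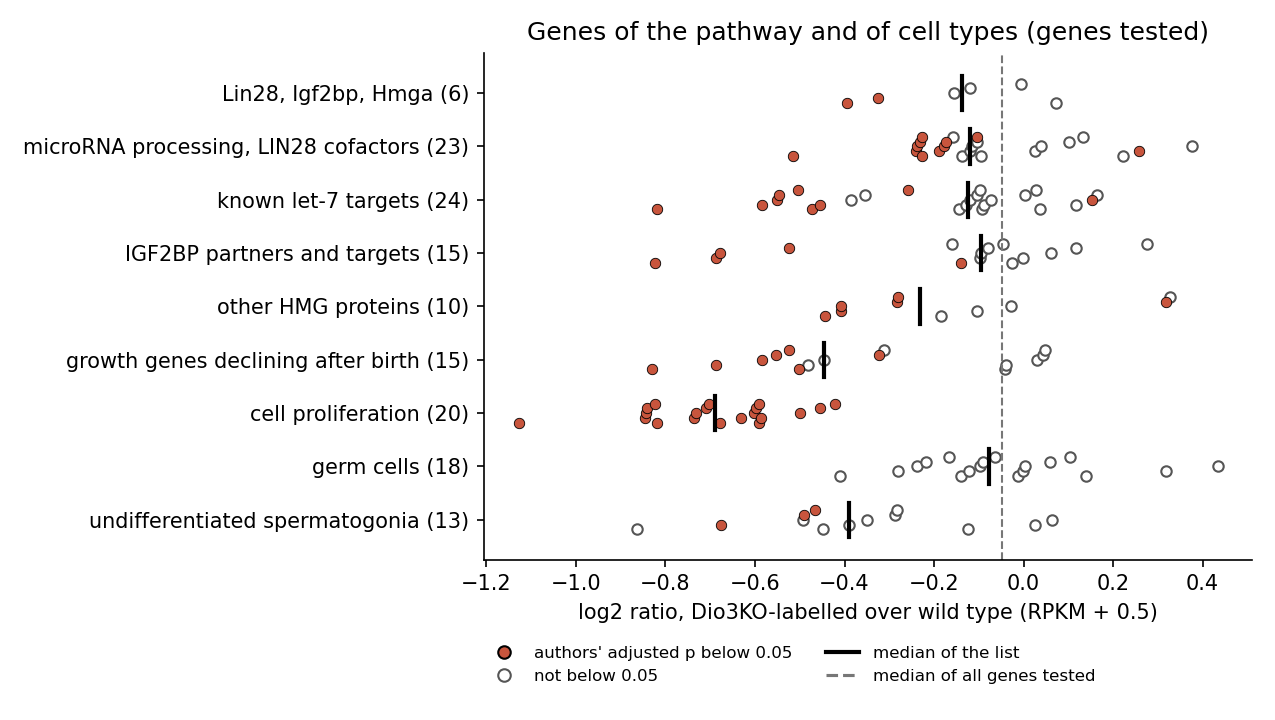
log2 ratio (horizontal axis) of each tested gene in the 7-gene group, 5 lists of the pathway and 3 marker lists, with the number of genes in brackets. Filled points passed the authors' adjusted p of 0.05, black bars are list medians and the dashed line is the median of all genes tested (-0.05). All 20 proliferation genes are filled and lie left of the line, and no germ cell marker is filled.

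Several cell types and cell states moved in the same comparison. All 20 proliferation genes fell, and their summed level went from 1179 to 732 RPKM. Examples are Kif11 (given above), Tpx2 (30.8 and 19.7 RPKM), Top2a (119 and 71.4 RPKM) and Pcna (162 and 108 RPKM). Of 18 germ cell markers 0 passed the authors' adjusted p, with Dazl as above and Mael at 69.3 and 57.0 RPKM, and their summed level was 423 and 395 RPKM. limma called Ddx4 (34.3 and 29.0 RPKM) and Tex101 (23.8 and 17.8 RPKM) lower and Kit (6.09 and 8.40 RPKM) higher, with adjusted p values of 0.0354, 0.0445 and 0.0225 (named after their values were seen). Their median log2 ratio of -0.08 turned to 0.01 after scaling to the same total RPKM. Of 13 tested markers of undifferentiated spermatogonia 3 fell and 0 rose by the authors' adjusted p, and limma called 6 lower and 0 higher. The sum over the 17 in the table went from 118 to 97.9 RPKM. Tspan8 (3.28 and 2.19 RPKM) and Ret (9.43 and 6.69 RPKM) fell, while Gfra1 (15.2 and 11.5 RPKM) and Etv5 (23.2 and 24.2 RPKM) were not called. Of 11 macrophage markers tested 8 rose, and the sum over the 12 in the table went from 88.6 to 178 RPKM. Among those that rose were Csf1r (7.85 and 15.9 RPKM), Cx3cr1 (4.06 and 9.11 RPKM) and C1qc (12.3 and 25.9 RPKM), while Lyz2 (24.2 and 41.2 RPKM) was not called. Of 10 endothelial markers 5 rose, their sum going from 72.2 to 91.2 RPKM, among them Tek (2.66 and 4.25 RPKM) and Esam (6.56 and 9.81 RPKM), while Cdh5 (23.5 and 24.4 RPKM) and Egfl7 (11.7 and 13.0 RPKM) were not called. No marker of these lists that is in the table was at 0 in either group. The part of these shifts in the falls of Igf2bp1 and Igf2bp3 was not tested, and in whole testes fewer cells of a type cannot be told apart from less RNA per cell.

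Markers of the somatic cells were mixed. Of 15 Sertoli cell markers 5 rose and 4 fell, among them the tight junction gene Cldn11 (83.6 and 299.9 RPKM) and the FSH receptor gene Fshr (17.8 and 9.49 RPKM). Of 12 genes listed as Leydig cell markers 4 rose and 3 fell, and which cells expressed them at postnatal day 5 was not tested. Hsd17b3, an enzyme of testosterone synthesis, fell from 117 to 10.3 RPKM and Ren1 from 15 to 5.74 RPKM, while the steroidogenic genes Cyp11a1 (64.2 and 156 RPKM) and Hsd3b1 (158 and 245 RPKM) rose. Of 9 peritubular myoid markers 3 rose and 1 fell, with Des at 13.8 and 25.3 RPKM and Acta2 at 401 and 346 RPKM, and Myl9 (268 and 265 RPKM) was not called. Of 4 blood cell markers tested Ptprc rose (0.72 and 1.78 RPKM), and Hba-a2 (727 and 611 RPKM) and Hbb-bs (710 and 649 RPKM) were not called.

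Nearness in the 2 group means was taken on the log2(RPKM + 0.5) scale, among genes with a reference symbol outside the 7. Genes with predicted-gene names, such as Gm, Rik or LOC symbols, were left out, and so was Hmga1b. The nearest genes to Igf2bp1 were Rab23 (6.68 and 5.28 RPKM), Saal1 (6.75 and 5.23 RPKM) and Rita1 (6.66 and 5.27 RPKM), at distances of 0.01 to 0.02. For Lin28b they were Jmjd7 (3.33 and 2.93 RPKM), D3Ertd751e (3.32 and 2.90 RPKM) and Mkrn3 (3.29 and 2.94 RPKM). For Hmga2 they were Ryr3, Crxos and Serpina1e, all below 1 RPKM. With 2 means per gene this likeness is one of level only.

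At the promoters, RefSeq windows of 300 bases around the start were at hand for 6 of the 7 genes, all but Igf2bp1, in 7 windows. The window of Lin28b (chr10:45470152-45470451) lies inside the gene as given above (chr10:45376620-45486395, minus strand). It therefore does not cover the start of Lin28b in GENCODE M21. The hexamer AGGTCA, which thyroid hormone receptors recognise, was searched on both strands and found in 0 of these windows, and in 16.3% of 32851 promoter windows of all genes. No match says only that these letters are not in this window.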

How the data were processed

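Whole testes of mice at postnatal day 5 had been sequenced, in 4 samples labelled wild type and 4 labelled Dio3KO. FastQC, Novoalign 2.08 and mm10 are named, with no role or order, per the submitters' processing notes. The authors' test, counting tool, annotation and strandedness were not given in the sources used here. Deposited by the authors were mean RPKM per group and transcript, with CVs and an adjusted p-value, per the file headers. The highest CV of 2.00 is the SD (n - 1) over the mean when 1 of 4 values is above 0. The table had 147417 lines, each transcript standing 3 times, and 49139 transcripts were left. Of 24582 symbols, 18080 were current in the reference tables, 2556 were older symbols of current genes and 3946 had no match. Columns of single samples left unused numbered 0. Depth per sample is unknown, so no counting interval was computed.

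Log2 ratios had 0.5 RPKM added to each mean, with SEs by the delta method from the CVs. "Rose" and "fell" mean an authors' adjusted p below 0.05 and, for counts, at least 1 RPKM in the mean of a group. As an alternative, variances from the CVs were moderated with limma 3.58.1 (squeezeVar, trend and robust, 6 residual degrees of freedom, a CV of 0 set to 0.0025) in R 4.3.3. Benjamini-Hochberg adjustment ran over every gene tested. The script was tested on simulated data. Limits of single samples allowed for the rounding of the CVs. The members and lists were chosen with earlier results of these data known. Named are all members, from each pathway list the called genes of lowest p (at most 4) and the highest others (at most 2), from each marker list the called genes of lowest p (at most 2) and the 2 of highest level, and the 3 genes nearest in level to 1 member of each family. Other pseudocounts, scalings, filters and transcripts were tried. 3′ UTRs and gene coordinates came from GENCODE M21, and for each gene the longest 3′ UTR of a basic protein-coding transcript was searched.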

Additional observations from a re-analysis of the deposited data

How the results depend on the processing

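Igf2bp1 and Igf2bp3 had log2 ratios from -0.35 to -0.23 and from -0.41 to -0.30 over the 5 alternatives run for them. None of these could have turned the direction. The shift made by each of the 2 scalings, given below, is smaller than either ratio, so the kept direction is no check. limma called 2 members lower, as deposited and after each scaling, and at an authors' adjusted p below 0.01 the count was 0. The other filters and the second highest transcript could not remove Igf2bp1 or Igf2bp3. Each has 1 transcript, means above 5 RPKM and the same deposited p throughout. The value of Lin28a turned to 0.091 with Dio3KO-labelled means scaled to the same total RPKM and to 0.042 when scaled to a median log2 ratio of 0, and that of Igf2bp2 moved to 0.17 under the former. The 2 scalings shift all ratios by 0.099 and 0.049. The pathway lists together (84 genes tested) had 32 lower and 3 higher. The higher count moved to 6 with limma and 5 with the second highest transcript, and the cause of these 2 moves was not tested. With limma it was 14 after scaling to the same total RPKM and 11 after scaling to a median of 0. Both scalings raise the Dio3KO-labelled means of all genes alike. Among all calls of limma, 44.5% were higher as deposited, 68.7% after scaling to the same total and 57.1% after scaling to the median. Pseudocounts of 0.1 and 1 RPKM, added to both means, cannot turn the sign of a log2 ratio and changed only its size. No paired analysis was possible because the table holds group means only, and leaving out a replicate was not run for the same reason. The unknown depth and the 4 samples per group limit what can be seen for Lin28a, Lin28b and Hmga1, whose wild-type CVs were 0.21 to 0.23.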

Other observations

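The spread within groups is given for the 7 genes as values with no test. The wild-type CV was larger than the Dio3KO-labelled CV in 6 of the 7 genes, Igf2bp1 being the exception (0.09 and 0.10), beside 59.5% of all 15226 genes tested. Lin28a (0.23), Lin28b (0.23) and Hmga1 (0.21) had wild-type CVs well above the median of 0.08 over all genes tested. Several other sets also had larger CVs in the wild-type group: all 18 germ cell markers (medians 0.20 and 0.09), all 4 blood cell markers tested (medians 0.505 and 0.17), 8 of 10 other high mobility group genes (medians 0.06 and 0.05) and 10 of 13 markers of undifferentiated spermatogonia (medians 0.16 and 0.13). Proliferation genes showed the other order, with 3 of 20 having the larger CV in the wild-type group and medians of 0.055 and 0.07. So did macrophage markers (4 of 11, medians 0.13 and 0.15) and microRNA processing genes (11 of 23, medians 0.04 and 0.05). Of the let-7 precursor genes tested, 0 of 2 had the larger CV in the wild-type group (medians 0.47 and 0.575).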
